A study of Rattus norvegicus with 30 samples.

Results

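The interferon response genes Stat2, Irf7, Irf9, Isg15, Mx1, Rsad2, Usp18, Ifit3 and Bst2 were followed across injured and uninjured rat tendons. They were chosen by name, with earlier results of these data known, as 9 genes listed by symbol in the table of counts. It holds 13124 genes. All 9 passed the filter on low expression, which kept 12558 genes. Interferons are secreted proteins that cells release when they sense viral or displaced nucleic acids. Type I interferons bind a receptor that activates the kinases Jak1 and Tyk2, and a complex that holds STAT2 and IRF9 then binds interferon-stimulated response elements in the promoters of target genes. In injured tissue the same genes are known to be expressed by infiltrating leukocytes as well as by resident cells.

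RNA sequencing was performed on plantaris tendons of 3-month-old male Sprague Dawley rats. Control tendons came from rats that had neither surgery nor test compound. In all other rats the plantaris tendons of both legs were cut through and sutured at once, and the rats were gavaged 2 times a day with vehicle alone (0 mg/kg) or with the hematopoietic prostaglandin D synthase inhibitor GSK2894631A at 2 or 6 mg/kg, until tendons were taken at 7 days (7D) or 21 days (21D). The labels give 3 control tendons, 5, 4 and 3 tendons at 7D for 0, 2 and 6 mg/kg, and 5 tendons for each dose at 21D. The 0 mg/kg rats thus had the surgery and the vehicle, and the control rats had neither, so that surgery, vehicle and handling cannot be told apart in a comparison with control. Each tendon is bulk tissue, in which fewer cells of a type and less RNA per cell cannot be told apart.

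Total counts on the listed genes were 12405741 to 49909374 per tendon, and every member had at least 48 counts in every tendon. Levels are given as CPM, the count of a gene relative to the total of its tendon, after TMM scaling, which corrects for differences in library composition. Skeletal muscle RNA was a measured difference between the groups. In control tendons 11 muscle genes took 15.6 to 22.3% of all counts, against 0.137 to 1.03% at 7D 0 mg/kg, 0.00571 to 0.00821% at 7D 2 and 6 mg/kg, and 0.0534 to 7.85% at 21D. The tendon list of 8 genes summed to 10883 CPM or more in every tendon, mostly from Col1a1, which averaged 29604 CPM over all tendons. In each 7D group 4 of the 8 were lower than in control tendons, and 1, 0 and 1 were higher at 0, 2 and 6 mg/kg. Of all genes 35.6, 34 and 33.8% were lower. The 4 pan-leukocyte markers were higher than in control tendons in all 6 repaired groups.

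The promoters of 7 of the 9 genes were matched by symbol in the RefSeq promoter set on the GRCr8 assembly, which takes 250 bases before and 50 after each gene start. The core of the interferon-stimulated response element was searched on both strands as a pair of GAAA separated by 2 bases of any kind, which reads as a pair of TTTC on the opposite strand. It was found in the windows of Irf7, Rsad2, Ifit3 and Bst2 and not in those of Stat2, Irf9 and Mx1. Of all 33469 promoter windows of this length, 1312 (3.92%) held it, as did 30 of the 68 matched genes of the wider interferon pathway list described below. The stretches are shown because the complex formed by Stat2 and Irf9 is known to bind this element. They are written 5′ to 3′ on the strand of the gene, upstream of the start, with the element in capitals.
Irf7: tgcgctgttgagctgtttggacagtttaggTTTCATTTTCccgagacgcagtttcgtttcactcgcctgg
Rsad2: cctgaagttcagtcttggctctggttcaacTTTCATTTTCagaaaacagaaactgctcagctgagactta
Ifit3: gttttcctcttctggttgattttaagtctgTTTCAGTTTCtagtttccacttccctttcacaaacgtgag
Bst2: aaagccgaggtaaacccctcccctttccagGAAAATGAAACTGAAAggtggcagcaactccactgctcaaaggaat

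The Irf7 stretch is chr1:205800053-205800122 on the minus strand, and its element begins 69 bases before the start. The Rsad2 stretch is chr6:48788228-48788297 on the minus strand, with the element 147 bases before the start. The Ifit3 stretch is chr1:241527252-241527321 on the plus strand, with the element 44 bases before the start. In Bst2, at chr16:18255053-18255128 on the minus strand, 2 overlapping matches begin 131 bases before the start. Irf7, Rsad2 and Ifit3 carry the element in the opposite orientation to Bst2. A second element, the STAT dimer site TTCNNNGAA, which reads the same on both strands, was present in the windows of Irf9 and Bst2 and in 2970 (8.87%) of all windows. Irf9 is the transcription factor member whose window held this second element, at chr15:33065707-33065775 on the plus strand, and the capitals below mark it 99 bases before the start.
Irf9: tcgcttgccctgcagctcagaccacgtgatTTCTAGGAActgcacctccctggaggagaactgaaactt
The Bst2 match to the second element overlaps its first match to the response element. A match is a description of the letters in these windows, and binding was not measured.

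Stat2, the STAT protein that carries the transcription activation domain of the interferon-activated complex, had its lowest levels in control tendons, at 39.3, 39.2 and 43.2 CPM. It was 75, 67.5, 129, 74.4 and 67.1 CPM in the 7D 0 mg/kg tendons, 59.0, 113, 70.9 and 82.9 CPM at 7D 2 mg/kg, and 72.0, 64.1 and 77.1 CPM at 7D 6 mg/kg. No 7D tendon overlapped the control tendons, whatever the dose. At 21D Stat2 was 42.4, 77.0, 62.4, 56.8 and 50.9 CPM at 0 mg/kg, 45.1, 65.1, 44.8, 51.6 and 60.5 CPM at 2 mg/kg, and 39.5, 50.9, 49.0, 50.7 and 53.7 CPM at 6 mg/kg. Of the 15 tendons at 21D, 13 lay above all control tendons, and 1 each at 0 and 6 mg/kg overlapped the control range.

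Irf9, the DNA-binding partner of STAT2, had the narrowest spread of the 9 genes. It was 22.3, 28.4 and 30.3 CPM in control tendons. The 12 tendons at 7D ranged from 38.8 to 61.5 CPM, with group means of 47.1 ± 5.54 (SD, n = 5), 49.2 ± 9.36 (n = 4) and 44.5 ± 1.08 CPM (n = 3) at 0, 2 and 6 mg/kg, and every one lay above the control tendons. At 21D the means were 37.3 ± 5.30, 33.9 ± 3.80 and 32.9 ± 4.93 CPM (SD, n = 5 each), and only the 6 mg/kg group, with a lowest tendon of 25.4 CPM, overlapped control.

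Irf7, the interferon regulatory factor that drives expression of type I interferon genes and is itself an interferon target, was 18.4, 31.1 and 32.3 CPM in control tendons. It reached 130, 70.4, 168, 76.9 and 62.6 CPM at 7D 0 mg/kg, 45.8, 231, 176 and 77.7 CPM at 7D 2 mg/kg, and 121, 60.3 and 70.4 CPM at 7D 6 mg/kg. All 7D tendons were above control, and within each group the highest tendon stood well apart from the lowest. At 21D 0 mg/kg it was 34.5, 32.5, 92.7, 121 and 48.9 CPM. The lowest of these was within 1 CPM of the highest control tendon, without overlapping it. At 21D the 2 mg/kg tendons spanned 29.3 to 79.5 CPM and the 6 mg/kg tendons 25.4 to 106 CPM, and both ranges overlapped control.

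Isg15 encodes a ubiquitin-like protein that is attached to other proteins, and Usp18 encodes the protease that removes it and also dampens interferon receptor signalling. Isg15 was 2.26, 6.41 and 8.99 CPM in control tendons, 18.9, 16.1, 90.3, 25.5 and 10.1 CPM at 7D 0 mg/kg, 6.45, 76.3, 31.5 and 42.2 CPM at 7D 2 mg/kg, and 17.3, 12 and 15.5 CPM at 7D 6 mg/kg. One 7D tendon, replicate 2 at 2 mg/kg, fell inside the control range, and the others were above it. Usp18 was 6.89, 10.8 and 7.92 CPM in control tendons and 14.6 to 58.4 CPM across all 7D tendons, without overlap. At 21D the groups for Isg15 averaged 8.90 ± 2.03, 9.10 ± 6.17 and 8.59 ± 4.12 CPM (SD, n = 5 each) at 0, 2 and 6 mg/kg, beside 5.89 ± 3.39 CPM in control tendons (n = 3). Those for Usp18 averaged 19.7 ± 7.41, 19.2 ± 9.30 and 14.0 ± 5.46 CPM, beside 8.53 ± 2.02 CPM in control. Usp18 at 21D 0 mg/kg had a slightly higher mean than the 19.4 ± 4.07 CPM (n = 3) of the 7D 6 mg/kg group, whereas Isg15 in every 21D group had a lower mean than in every 7D group.

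Among the antiviral effectors, Mx1, a dynamin-like GTPase that blocks viral replication, covered the widest range. It was 3.87, 5.13 and 5.15 CPM in control tendons, 16.5, 17.1, 166, 28.7 and 11.8 CPM at 7D 0 mg/kg, 8.88, 140, 43.9 and 18.2 CPM at 7D 2 mg/kg, and 26.2, 18 and 36.6 CPM at 7D 6 mg/kg. Every 7D tendon was above every control tendon, and a single tendon in each of the 0 and 2 mg/kg groups exceeded all others. At 21D it was 3.18, 7.21, 10.5, 12.5 and 6.2 CPM at 0 mg/kg, 4.01, 17.9, 2.57, 6.97 and 9.62 CPM at 2 mg/kg, and 2.03, 9.68, 6.01, 11.7 and 4.85 CPM at 6 mg/kg. Each 21D group held at least 1 tendon below the lowest control tendon or within the control range. Reads of 50 bases can be shared between Mx1 and its paralog Mx2 and among the Ifit genes, so the split of counts within these families is uncertain.

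Rsad2, or viperin, an enzyme that makes a chain-terminating nucleotide, was 17.8, 6.78 and 6.21 CPM in control tendons. It was 25.4, 38.0, 47.5, 4.55 and 31.8 CPM at 7D 0 mg/kg, where replicate 4 lay below all control tendons and the others lay above them. At 7D 2 mg/kg it was 13, 48.1, 58.0 and 26.9 CPM, and at 7D 6 mg/kg it was 38.0, 48.2 and 24.4 CPM. Rsad2 was the member whose highest group mean was at 7D 6 mg/kg (36.8 ± 11.9 CPM, SD, n = 3), although 36.5 ± 20.3 CPM at 7D 2 mg/kg (n = 4) was nearly the same. The 21D tendons ranged from 7.04 to 41.6 CPM and overlapped both the control and the 7D tendons.

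Ifit3, a tetratricopeptide repeat protein that acts with other IFIT proteins on viral RNA, and Bst2, or tetherin, which holds budding virus particles at the cell surface, were the members least separated from control. Ifit3 was 4.67, 9.22 and 17.9 CPM in control tendons, 17.8, 18.9, 70.0, 12.6 and 12 CPM at 7D 0 mg/kg, 7.11, 59.8, 25.1 and 28.3 CPM at 7D 2 mg/kg, and 10.8, 28.1 and 17.4 CPM at 7D 6 mg/kg. At 21D its group means were 8.21 ± 3.49, 8.21 ± 5.91 and 8.20 ± 1.82 CPM (SD, n = 5 each), below the control mean of 10.6 ± 6.72 CPM (n = 3). Bst2 was 31.1, 57.9 and 96.9 CPM in control tendons, a 3-tendon range that took in all but 3 of the 7D tendons. The exceptions were replicate 3 at 0 mg/kg and replicates 3 and 4 at 2 mg/kg, at 99.6, 118 and 111 CPM. The 21D tendons, at 32.6 to 73.3 CPM, all lay inside the control range of Bst2.

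**Figure D1:**
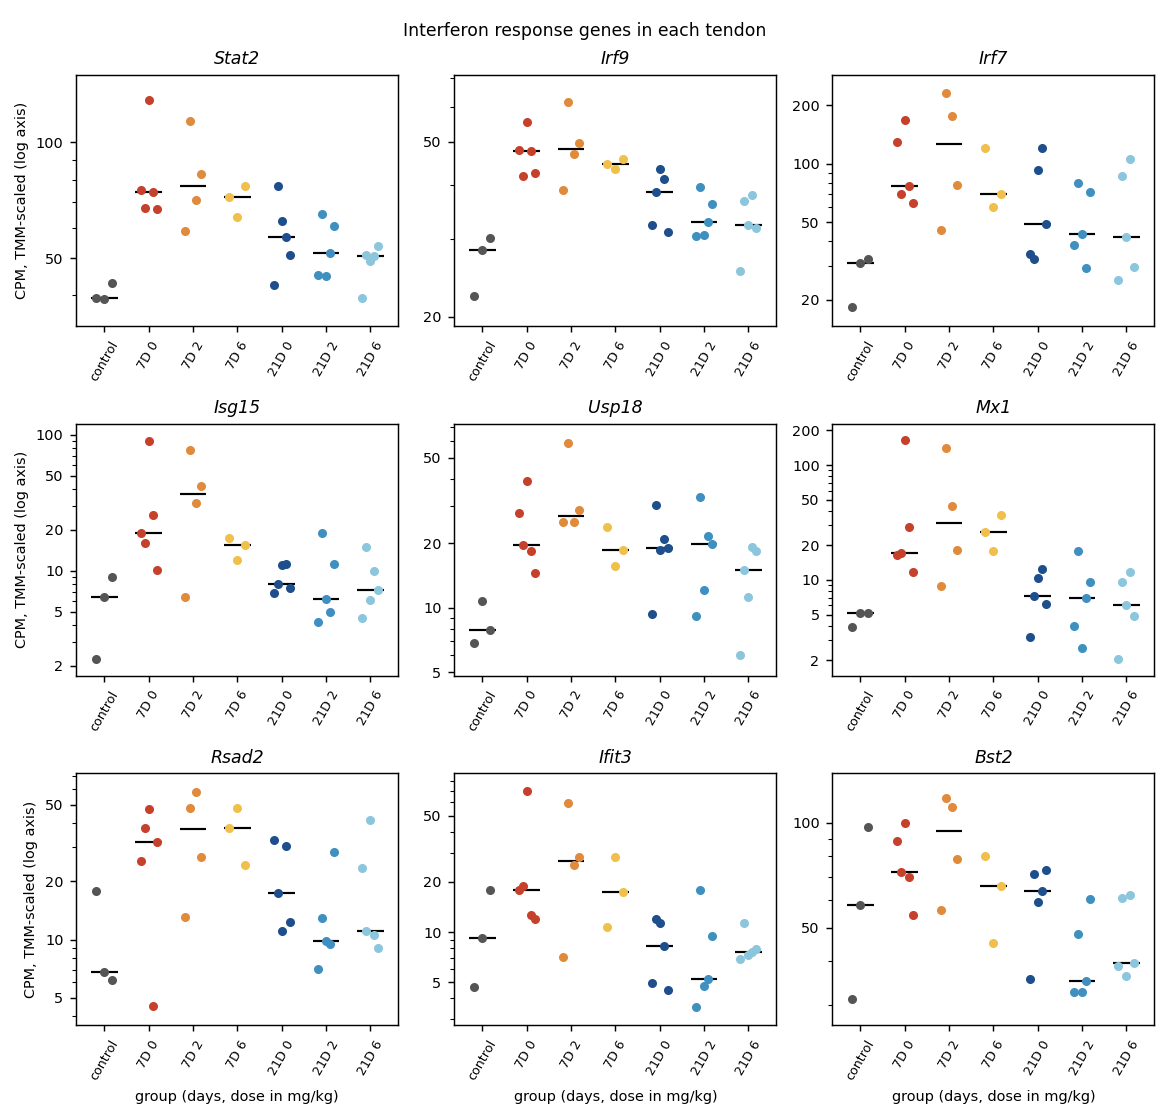
Level of each of the 9 interferon response genes in each tendon, in TMM-scaled CPM on a log axis, by group (days after repair and dose in mg/kg). Points are tendons and bars are group medians. Stat2, Irf9, Irf7, Usp18 and Mx1 lie above control in every 7D tendon, and Bst2 at 7D mostly lies inside the control range.

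Repaired tendons were first compared with control tendons. At 7D 0 mg/kg, 7 of the 9 genes were higher than in control and none was lower at an adjusted p under 0.05, where 35.8% of all genes tested were higher and 35.6% lower. Mx1 rose most, 10.2-fold (log2 fold change 3.35 ± 0.95, SE, adjusted p = 0.003), followed by Isg15 at 5.53-fold (2.47 ± 0.72, adjusted p = 0.00379) and Irf7 at 3.73-fold (1.90 ± 0.58, adjusted p = 0.00517). Rsad2, Usp18, Stat2 and Irf9 rose by log2 1.51 ± 0.66, 1.48 ± 0.44, 1.02 ± 0.22 and 0.80 ± 0.15. Ifit3, at a log2 fold change of 1.32 ± 0.65 (adjusted p = 0.07), and Bst2, at 0.31 ± 0.32 (adjusted p = 0.381), did not pass the test. Here and below, p-values come from the quasi-likelihood test of edgeR and were adjusted by the Benjamini-Hochberg procedure over all 12558 genes. Levels did not overlap between the groups for 6 of the 9 genes, beside 31.2% of all genes, and all 6 kept their call when any single tendon was left out. The size of the change rested on 7D 0 mg/kg replicate 3 for Mx1, which was 3.94-fold higher without it (log2 1.98 ± 0.75), and for Isg15, which was 3.03-fold higher (1.60 ± 0.61), below Irf7 at log2 1.64 ± 0.58. Without control replicate 2 Rsad2 was 4.32-fold higher in place of 2.86-fold. The call of Rsad2 was lost without control replicate 3 or 4 or 7D 0 mg/kg replicate 2, 3 or 5, and Ifit3 was called without control replicate 4 or 7D 0 mg/kg replicate 4 or 5.

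At 7D 2 mg/kg 8 of the 9 genes were higher (35.8% of all genes), with Mx1 at 11.2-fold (log2 3.49 ± 0.97), Isg15 at 6.73-fold (2.75 ± 0.75), Irf7 at 4.87-fold (2.28 ± 0.60) and Usp18 at 4.02-fold (2.01 ± 0.46). Ifit3 was among them at an adjusted p of 0.0469, and Bst2 was not, at a log2 fold change of 0.55 ± 0.33 (adjusted p = 0.14). The levels of 5 genes did not overlap with control, beside 30.1% of all genes. The calls of Stat2, Irf9, Irf7, Isg15, Usp18 and Mx1 were kept when any single tendon was left out. Without 7D 2 mg/kg replicate 3 Mx1 was 5.02-fold higher (log2 2.33 ± 0.88), and without control replicate 2 Rsad2 was 5.38-fold higher in place of 3.54-fold. The call of Ifit3 was lost without control replicate 2 or 3 or 7D 2 mg/kg replicate 3, 4 or 5, that of Rsad2 without control replicate 3 or 4 or 7D 2 mg/kg replicate 4, and Bst2 was called without control replicate 4.

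At 7D 6 mg/kg 6 of the 9 genes were higher, beside 34.1% of all genes. Mx1 (log2 2.52 ± 0.97), Rsad2 (1.83 ± 0.71), Irf7 (1.63 ± 0.61), Usp18 (1.19 ± 0.47), Stat2 (0.81 ± 0.23) and Irf9 (0.72 ± 0.16) passed the test. Isg15, at 1.36 ± 0.74 (adjusted p = 0.107), did not, although its 3 tendons all lay above control. Levels of 7 genes did not overlap, beside 34.6% of all genes, in a group of 3 tendons against 3. The count fell to 3 without control replicate 2 or without control replicate 4, and Stat2 and Irf9 were the members that kept their call when any single tendon was left out. Irf7 lost it without control replicate 2 or 7D 6 mg/kg replicate 1, Usp18 without control replicate 2 or 4 or 7D 6 mg/kg replicate 1, Mx1 without any of the control tendons or 7D 6 mg/kg replicate 5, and Rsad2 without control replicate 3 or 4 or 7D 6 mg/kg replicate 4. Rsad2 was 5.44-fold higher without control replicate 2 and 3.56-fold with it.

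The 21D groups, which were compared with the same 3 control tendons, had fewer members called. At 21D 0 mg/kg 4 genes were higher (32.2% of all genes), namely Irf7 (log2 1.27 ± 0.56, adjusted p = 0.0487), Usp18 (1.2 ± 0.43, adjusted p = 0.0176), Stat2 (0.51 ± 0.21, adjusted p = 0.0361) and Irf9 (0.47 ± 0.15, adjusted p = 0.00753). At 21D 2 mg/kg Usp18 (1.16 ± 0.43, adjusted p = 0.0196) and Irf9 (0.33 ± 0.15, adjusted p = 0.048) were higher, 2 of the 9 beside 33.8% of all genes. At 21D 6 mg/kg none of the 9 was called, beside 30.8% of all genes, none had an unadjusted p under 0.05, beside 67.5% of all genes in either direction, and DESeq2 called none either. The levels of 2 genes at 21D 0 mg/kg and of 2 at 21D 2 mg/kg did not overlap with control, beside 25% and 29.5% of all genes, and none at 6 mg/kg did, beside 25.9%. These counts rest on few tendons. The 4 calls at 0 mg/kg became 0, 2 or 1 without control replicate 2, 3 or 4 and 2 without 21D 0 mg/kg replicate 2. Both calls at 2 mg/kg were lost without control replicate 2, control replicate 4 or 21D 2 mg/kg replicate 2, and 1 was left without replicate 4 or 5, while at 6 mg/kg Irf9 was called without 21D 6 mg/kg replicate 1.

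**Figure D2:**
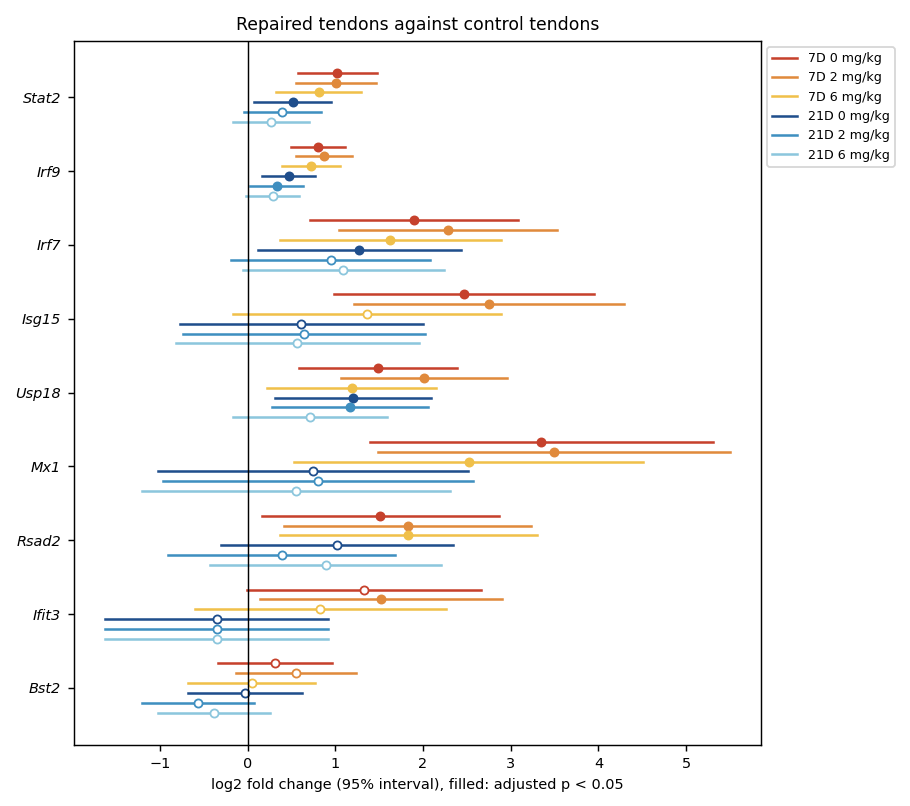
Log2 fold change of each gene in each repaired group against the 3 control tendons, with its 95% interval. Filled points passed an adjusted p under 0.05. The intervals of Mx1 are the widest and those of Irf9 the narrowest, and all 7D points lie to the right of the 21D points for every gene except Usp18, whose 7D 6 mg/kg value (1.19) is beside that at 21D 0 mg/kg (1.2).

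The median log2 fold change of the 9 genes against control was 1.48, 1.82 and 1.19 at 7D and 0.61, 0.40 and 0.55 at 21D, for 0, 2 and 6 mg/kg, beside medians over all genes of 0.01 to 0.05. The muscle share moved with this comparison, since the lowest control tendon, at 15.6%, was above the highest repaired tendon, at 7.85%. With the log2 muscle share as a covariate, the number of members higher than control was 2, 0 and 0 at 7D and 1, 0 and 0 at 21D, and muscle RNA and repair cannot be told apart here. Scaling by library size alone moved the median of all genes to 0.51 to 0.64 and the split of all calls at 7D 0 mg/kg from 4493 higher and 4473 lower to 7474 higher and 2418 lower. It moved that at 21D 0 mg/kg from 4042 and 4232 to 7267 and 2067. Under it Ifit3 and Bst2 in the 21D groups turned from lower to higher than control, without passing the test. It gave 4 members called at 21D 6 mg/kg, in place of 0.

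The second comparison was of 21D with 7D tendons at each dose. Muscle RNA also differed between these times at 2 and 6 mg/kg, as given below. All 9 fitted changes were below 0 at all 3 doses, and the number that passed the test was 1, 6 and 1 at 0, 2 and 6 mg/kg, beside 2.47, 5.98 and 4.55% of all genes that were lower. At 2 mg/kg Mx1 fell by 2.69 ± 0.76 on the log2 scale (adjusted p = 0.0196), Isg15 by 2.11 ± 0.59 (adjusted p = 0.0196), Ifit3 by 1.88 ± 0.57 (adjusted p = 0.0286) and Bst2 by 1.12 ± 0.29 (adjusted p = 0.0108). Stat2 fell by 0.61 ± 0.19 (adjusted p = 0.0341) and Irf9 by 0.54 ± 0.13 (adjusted p = 0.00803). Irf7, Rsad2 and Usp18 had fitted changes of -1.34 ± 0.49, -1.44 ± 0.56 and -0.84 ± 0.37 and did not pass, with adjusted p-values of 0.0695, 0.0911 and 0.137. None of the 9 genes was free of overlap between the 21D and 7D tendons at 2 mg/kg, beside 5.93% of all genes. This count leaned on 1 tendon, since without 7D 2 mg/kg replicate 3 it was 1, which was Bst2, and the fitted change of Mx1 was then -1.53 ± 0.72 (adjusted p = 0.18). Without 21D 2 mg/kg replicate 1 or 4 it was 2 or 3.

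At 0 mg/kg Mx1 fell by 2.60 ± 0.73 (adjusted p = 0.0371), whereas Isg15, at -1.85 ± 0.57 (adjusted p = 0.0533), and Ifit3, at -1.68 ± 0.54 (adjusted p = 0.065), missed the threshold. Ifit3 was the gene whose tendons did not overlap between the times, beside 3.38% of all genes. At 6 mg/kg Irf9 fell by 0.44 ± 0.14 (adjusted p = 0.0428), and Mx1, at -1.97 ± 0.79 (adjusted p = 0.101), and Stat2, at -0.54 ± 0.21 (adjusted p = 0.0804), did not pass although these 3 genes did not overlap between the times, beside 10.6% of all genes. The call at 0 mg/kg was lost without 7D 0 mg/kg replicate 3 or 4 or 21D 0 mg/kg replicate 1, 3, 4 or 5, while 2 genes were called without 7D replicate 2 or 5 and 3 without 21D replicate 2. Without 7D 0 mg/kg replicate 3 the fitted change of Mx1 at 0 mg/kg was -1.23 ± 0.60 (adjusted p = 0.279), or 2.35-fold in place of 6.08-fold. The call at 6 mg/kg was lost without any of the 3 tendons at 7D or without 21D 6 mg/kg replicate 1, 3 or 5. DESeq2 called 4, 7 and 1 genes at the 3 doses, and a fit of only the 2 groups compared called 0, 3 and 3. With the muscle share as a covariate none was called at any dose. At 2 mg/kg that share was 0.00571 to 0.00821% at 7D and 1.03 to 2.66% at 21D. At 6 mg/kg it was 0.00618 to 0.00779% and 0.282 to 7.85%, again without overlap. Muscle RNA and time thus cannot be told apart at these 2 doses. At 0 mg/kg the shares, 0.137 to 1.03% and 0.0534 to 6.41%, overlapped. For 0, 2 and 6 mg/kg the 11 muscle genes had median log2 fold changes of 2.58, 9.53 and 10.2. Of them 1, 11 and 11 were higher at 21D, beside 2.88, 7.09 and 8.54% of all genes. The 4 pan-leukocyte markers had median log2 fold changes of -0.11, -0.30 and -0.91 between 21D and 7D at 0, 2 and 6 mg/kg. Those of the 7 macrophage and monocyte markers were -0.15, -0.44 and -0.83, with 0, 1 and 2 lower. The 4 neutrophil markers had medians of -1.94, -1.72 and -2.04 (2, 1 and 3 lower) and the 8 T and NK cell markers -1.22, -0.83 and -1.45 (1, 2 and 3 lower). Plasmacytoid dendritic cells are known for a high output of type I interferon, and their 5 markers had medians of -0.37, -0.15 and -0.49 (2 lower at each dose). Those 2 were Siglech, with log2 fold changes of -2.45, -1.80 and -2.54, and Spib, with -1.70, -1.88 and -2.87. The part of these cells in the change of the 9 genes was not tested.

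The doses of GSK2894631A were compared within each time. None of the 9 genes passed the F-test over the 3 doses at 7D, where 2.05% of all genes did, or at 21D, where 0% did, and none passed any of the 6 comparisons between a pair of doses. In those 6, 2.36% of all genes passed for 2 against 0 mg/kg at 7D, 0.39% for 6 against 0 mg/kg at 7D, and 0% in the other 4. None of the 9 had an unadjusted p under 0.05 in any of these tests, and DESeq2 called none. At that unadjusted level 12.5% and 10.9% of all genes passed the F-tests at 7D and 21D. Between pairs of doses 15.5, 5.94 and 7.94% did at 7D, for 2 against 0, 6 against 0 and 6 against 2 mg/kg, and 8.58, 6.45 and 13.9% at 21D. The smallest adjusted p in the F-test at 7D was 0.602, for Isg15. At 7D the change from 0 to 6 mg/kg was -1.10 for Isg15 (95% interval -2.47 to 0.26), -0.83 for Mx1 (-2.51 to 0.85) and -0.08 for Irf9 (-0.38 to 0.22) on the log2 scale. At 7D the change from 0 to 2 mg/kg was 0.53 for Usp18 (-0.24 to 1.29) and -0.02 for Stat2 (-0.41 to 0.38). A 2-fold fall from 0 to 6 mg/kg was thus inside the interval for Isg15 and Mx1 and outside it for Irf9. The muscle share at 7D was 0.137 to 1.03% at 0 mg/kg and 0.00571 to 0.00821% at 2 and 6 mg/kg, without overlap. Dose and muscle RNA thus cannot be told apart in the comparisons at 7D that include 0 mg/kg. Usp18 was the gene without overlap between 7D tendons at 6 and 2 mg/kg, all 3 tendons at 6 mg/kg being the lower ones, beside 5.52% of all genes, with a log2 fold change of -0.82 ± 0.43 (adjusted p = 0.695). At 21D the change from 0 to 6 mg/kg was -0.49 for Usp18 (-1.22 to 0.24), the largest of the 9 in size. The difference in dose effects between 7D and 21D was tested as an interaction, and none of the 9 genes passed (0.39% of all genes did), at adjusted p-values of 0.792 to 0.989. None had an unadjusted p under 0.05 (7.84% of all genes did) and DESeq2 called none, so that the larger number of calls at 2 mg/kg between 21D and 7D is not shown to differ from that at the other doses.

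**Figure D3:**
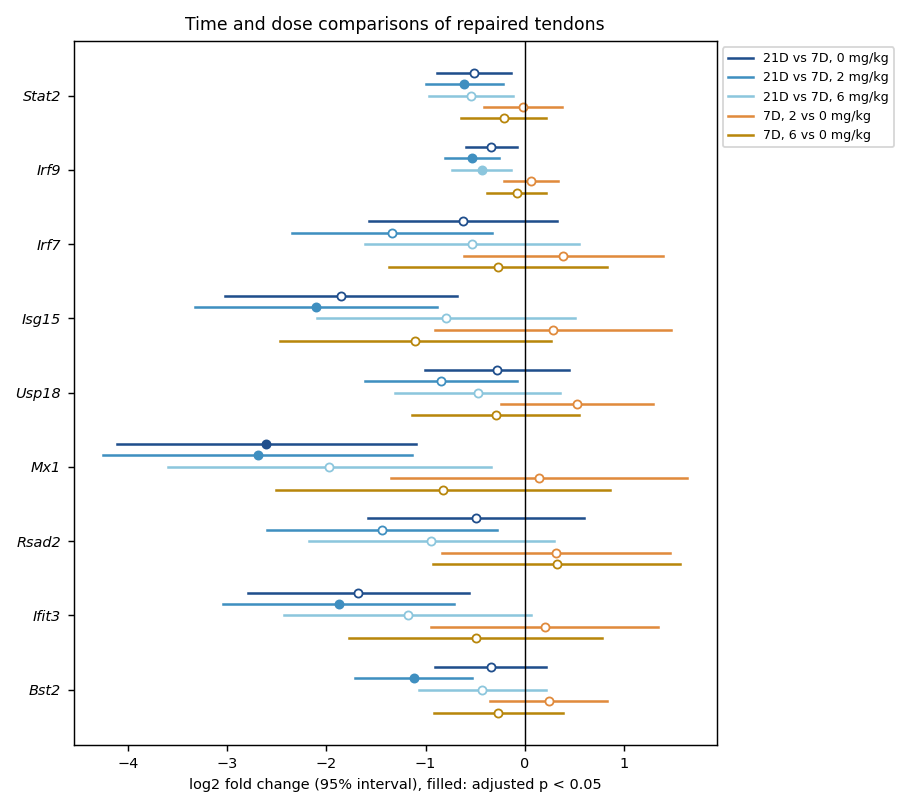
Log2 fold change of each gene with its 95% interval between 21D and 7D at each dose, and between doses at 7D. Filled points passed an adjusted p under 0.05. All time differences lie left of 0, with 1, 6 and 1 filled points at 0, 2 and 6 mg/kg, and every dose interval spans 0.

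Tendons of the same group differed more for most of these genes than for the typical gene. The within-group SD of log2 CPM was 1.13 for Mx1, 0.94 for Isg15, 0.93 for Rsad2, 0.87 for Ifit3, 0.77 for Irf7, 0.59 for Usp18, 0.46 for Bst2 and 0.29 for Stat2, beside a median of 0.26 over all genes tested. Irf9, at 0.20, was the member below that median. The 3 genes with the largest fold changes at 7D 0 mg/kg, Mx1, Isg15 and Irf7, were thus among the 5 with the largest spread, and Stat2 and Irf9, with smaller fold changes, kept their call at each dose at 7D when any single tendon was left out.

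The members moved together from tendon to tendon. Replicate 3 of the 7D 0 mg/kg group was the highest of its group for 9 of 9 genes, and replicate 3 of the 7D 2 mg/kg group for 8 of 9, the exception being Rsad2. Replicate 2 of the 7D 2 mg/kg group was the lowest for 8 of 9, the exception being Usp18. Among 21D tendons, replicate 2 at 2 mg/kg was the highest for 7 of 9 genes and replicate 1 at 6 mg/kg the lowest for 7 of 9. After the group means were subtracted, Pearson's r between pairs of members over the 30 tendons had a median of 0.71 across 36 pairs and ranged from -0.01 to 0.86, with Isg15 and Ifit3 the highest pair and Irf9 and Isg15 also at 0.86. Spearman's rho had the same median of 0.71. Without 7D 0 mg/kg replicate 3 and 7D 2 mg/kg replicate 2 the median r was 0.64. These points share a library in each tendon, and the values are a description.

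Rsad2 stood apart from this pattern. Its median r with the 8 other members within groups was 0.14, with a range of -0.01 to 0.30, beside medians of 0.63 to 0.79 for the other members. In replicate 4 of the 7D 0 mg/kg group Rsad2 was 4.55 CPM, the lowest of all 30 tendons, while Mx1 and Isg15 in that tendon were 28.7 and 25.5 CPM, the second highest of the group. In replicate 2 of the control group Rsad2 was the highest of the 3 tendons and 7 of the other members were the lowest. Within groups, the mean standardized log2 CPM of the 9 genes was set against the mean log2 CPM of each marker list over 30 tendons. Its r was 0.46 for plasmacytoid dendritic cell, 0.32 for T and NK cell and 0.28 for neutrophil markers. It was 0.23 for macrophage and monocyte markers, 0.16 for pan-leukocyte markers and -0.17 for the log2 muscle share. The 5 plasmacytoid dendritic cell markers had equal weight in their mean, although Siglech and Spib averaged 1.38 and 4.12 CPM over all tendons. That mean is not a measure of the number of plasmacytoid dendritic cells. The part of any of these cell types in the spread was not tested.

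**Figure D4:**
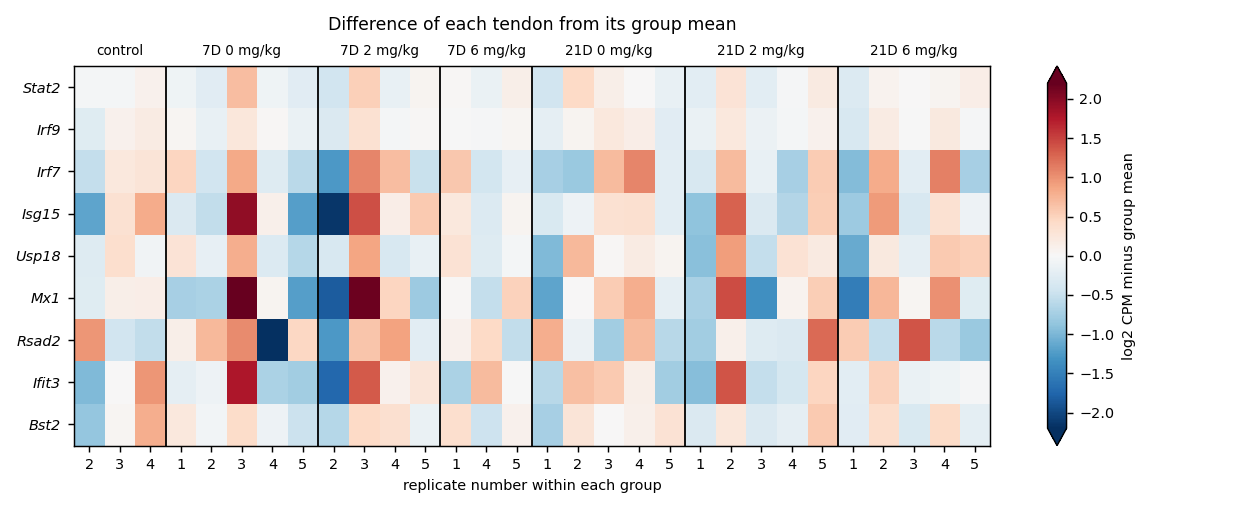
Difference of log2 CPM from the group mean for each gene (rows) in each of the 30 tendons (columns, by group and replicate number); red is above and blue below the mean, and the color scale stops at 2.2 in either direction. Some columns hold a single color from Stat2 to Bst2, as in replicate 3 at 7D 0 mg/kg, and others are mixed. The row of Rsad2 often differs.

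The genes most like the members were sought over the 30 tendons by Pearson's r with the mean standardized log2 CPM of the 9. The 5 most alike were Oasl (0.94), RT1-S3, Dhx58, Xaf1 and Zbp1 (0.92 each). After the group means were subtracted they were Xaf1 (0.90), Oasl (0.90), RT1-S3 (0.89), Oasl2 (0.88) and Samd9 (0.87). Oasl and Oasl2 belong to the oligoadenylate synthetase family, Dhx58 is a cytosolic RNA sensor and Zbp1 a nucleic acid sensor of cell death pathways. In both rankings 31 of the 50 most alike genes were on the pathway list described next, which holds 87 of the 12558 genes tested. Tendons share a library across genes, and the ranking is a description with no test.

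A wider list of 108 interferon pathway genes, which holds none of the 9, was followed beside them. It too was chosen with earlier results of these data known. Of these, 89 were in the table and 87 were tested. In comparison with control, 65, 68 and 60 of the 87 were higher at 7D 0, 2 and 6 mg/kg and 1, 1 and 2 were lower. At 21D 47, 40 and 39 were higher and 2, 2 and 3 lower. Of all genes, 30.8 to 35.8% were higher in these 6 comparisons, as given above, and 35.6, 34 and 33.8% at 7D and 33.7, 35.3 and 33.3% at 21D were lower. Between 21D and 7D 2, 21 and 12 of the 87 were lower and 0 were higher at 0, 2 and 6 mg/kg, beside 2.47, 5.98 and 4.55% of all genes lower and 2.88, 7.09 and 8.54% higher.

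By role, the 6 receptor genes were higher than control in all 6 repaired groups, beside 30.8 to 35.8% of all genes. Ifnar1, a chain of the type I receptor, was higher by log2 1.12 ± 0.22 at 7D 0 mg/kg and by 0.96 ± 0.22 at 21D 0 mg/kg, and Ifngr1, a chain of the interferon gamma receptor, by 0.71 ± 0.14 and 0.41 ± 0.14. The receptors thus remained called at 21D in groups where most of the 9 response genes were not, a difference between lists that was not tested. Of 10 kinases and other transcription factors, 7 were higher in each 7D group and 7, 6 and 6 at 21D 0, 2 and 6 mg/kg. At 21D 6 mg/kg 1 was lower. Those higher included Jak1 (0.47 ± 0.11 at 7D 0 mg/kg) and Stat3 (0.62 ± 0.12), which also serves other cytokines. None of the 11 interferon genes on the list was found by symbol among the 13124 genes counted, so the interferon genes themselves were not analysed here.

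Of 13 nucleic acid sensors and adaptors, 8, 12 and 9 were higher at 7D 0, 2 and 6 mg/kg and 5, 3 and 4 at 21D. Of all genes, 35.8, 35.8 and 34.1% were higher at 7D and 32.2, 33.8 and 30.8% at 21D, so the 21D counts are near that share. In each of the 6 groups 1 of the 13 was lower. Myd88, the adaptor of Toll-like receptors, was higher by log2 1.5 ± 0.18 at 7D 0 mg/kg. Eif2ak2, the kinase PKR that halts translation on sensing double-stranded RNA, had a log2 fold change of 0.28 ± 0.15 that did not pass (adjusted p = 0.1), and was higher at 7D 2 mg/kg by 0.54 ± 0.16. Ube2l6, the enzyme that conjugates Isg15, was higher at 7D 0 mg/kg by 1.45 ± 0.17 and at 21D 0 mg/kg by 1.09 ± 0.16, and Herc6, a ligase of the same pathway, had a change of 0.02 ± 0.38 at 7D 0 mg/kg. Of the 3 conjugation genes 2 were higher in each 7D group and 1 in each 21D group, the latter near the share of all genes.

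Of 36 other antiviral effectors, 28, 28 and 24 were higher at 7D and 16, 15 and 14 at 21D. The shares of all genes were 35.8, 35.8 and 34.1% at 7D and 32.2, 33.8 and 30.8% at 21D, here and for the 2 roles that follow. Ifi27 rose by log2 0.76 ± 0.24 and Ifitm3, which blocks viral entry, by 1.16 ± 0.17 at 7D 0 mg/kg. Of 15 interferon gamma targets, 12, 11 and 10 were higher at 7D and 10, 7 and 6 at 21D, with Gbp2, a guanylate-binding protein, at 2.07 ± 0.48 and B2m, the light chain of MHC class I, at 0.66 ± 0.18 at 7D 0 mg/kg. Of 4 feedback inhibitors 2 were higher in each group, and 1 was lower at 7D 6 mg/kg and in each 21D group. Socs3, an inhibitor of JAK signalling, was higher by 2.17 ± 0.35 at 7D 0 mg/kg, and Trex1, a DNA exonuclease, had a log2 fold change of -0.55 ± 0.19 at 21D 0 mg/kg (adjusted p = 0.011).

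**Figure D5:**
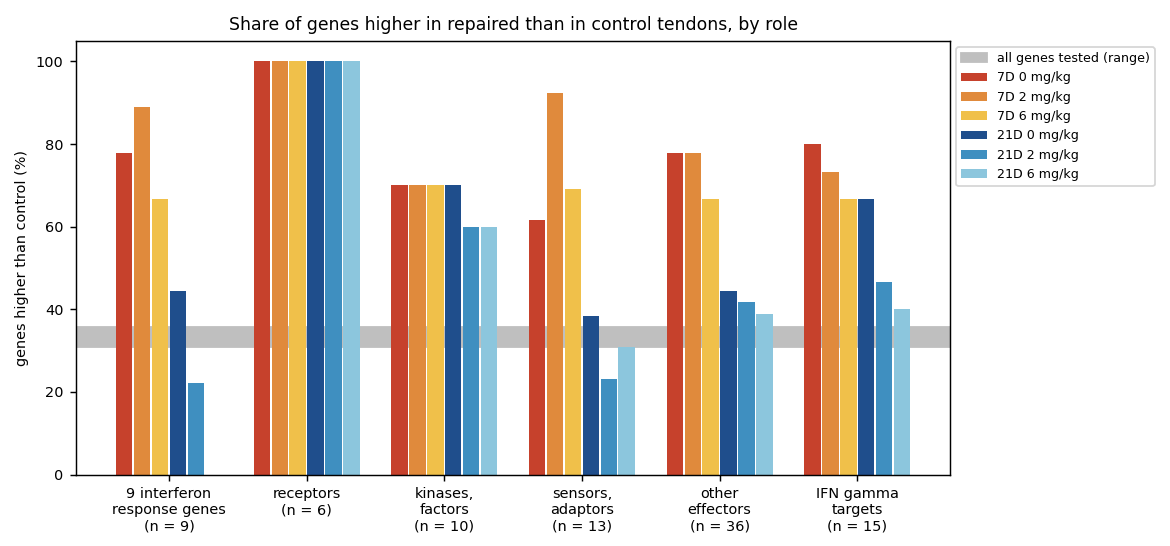
Share of tested genes higher than control at an adjusted p under 0.05, for the 9 interferon response genes and 5 roles of the pathway list (the 2 smallest roles are left out), by repaired group. The grey band spans the share of all genes tested, 30.8 to 35.8%. The receptors stay at 100% in all 6 groups, whereas the 9 genes go from 7, 8 and 6 genes at 7D to 4, 2 and 0 at 21D.

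Markers of infiltrating cells moved with the comparison to control as well. The 4 pan-leukocyte markers summed to 50.4 to 198 CPM in control tendons, 385 to 999 CPM at 7D and 270 to 1459 CPM at 21D. The 7 macrophage and monocyte markers summed to 233 to 1290 CPM, 1818 to 4794 CPM and 1198 to 7324 CPM. Their medians over tendons were lower at 21D (544 and 2665 CPM) than at 7D (800 and 3364 CPM). The sums of 21D 0 mg/kg replicate 2, 1459 and 7324 CPM, stood above all others, and without it the highest at 21D were 895 and 4771 CPM. Of the 5 plasmacytoid dendritic cell markers 4 were higher than control in all 6 repaired groups, Tcf4 being the exception in each. The list summed to 39.5 to 45.3 CPM in control tendons, 54.2 to 114 CPM at 7D and 56.5 to 88.2 CPM at 21D. Over all tendons Tcf4, Il3ra and Runx2 averaged 28.8, 20.9 and 17.1 CPM, Spib 4.12 CPM and Siglech 1.38 CPM. The sum thus rests mostly on Tcf4, Il3ra and Runx2 and is not a measure of the number of these cells. Siglech had 0 to 1 counts in a control tendon and 0.884 to 6.03 CPM at 7D. Of 8 T and NK cell markers 8, 7 and 8 were higher than control at 7D and 6, 5 and 6 at 21D, and of 4 neutrophil markers 3, 3 and 4 were higher at 7D, with median log2 fold changes at 21D of 0.94, 0.40 and 0.74. Their part in the levels of the 9 genes was not tested.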

How the data were processed

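After adapter trimming by fastp and removal of libraries on read quality, the authors used STAR for mapping to rn6 and for counting in Ensembl exons, and deposited raw counts per gene. Other values deposited by the authors, the gene widths and chromosomes, came from their edgeR table, whose columns of comparisons (fold changes and p-values) were not used. The labels give 3 tendons at 7D 6 mg/kg, and were followed.

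The model was fitted with edgeR 4.0.16 under R 4.3.3. A gene was kept when its mean reached 3 CPM in any of the 7 groups, which left 12558 genes. Libraries were TMM-scaled, and 1 quasi-likelihood model with a mean per group was fitted to all 30 tendons. Each comparison was a contrast with Benjamini-Hochberg adjustment over all genes kept and no fold threshold. The SE is the log2 fold change divided by the square root of F. Log2 CPM used a prior count of 2. Labels do not say more than that the tendons are separate samples, so p-values measure the spread between them.

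The members and lists were chosen with earlier results of these data known. Genes named are the 9 members, the 2 highest genes by mean CPM in each role of the pathway list, and the 5 genes most like the members. Some genes of the marker lists are named as well, and Tyk2 and Mx2 as background. No pair of tendons was a duplicate. Same-numbered tendons of different groups correlated from -0.70 to 0.68, with a median of 0.007, and over 0.1 in 29 of 76 pairs. Differently numbered tendons of different groups correlated from -0.67 to 0.78, with a median of 0.009, and over 0.1 in 89 of 307 pairs. The medians were alike, so that numbers were not treated as pairing tendons. Steps were tested on simulated data. Alternatives were RLE scaling, library size only, no expression filter, DESeq2 1.42.0, a replicate block, the muscle share as a covariate, only the groups compared, and leaving out each tendon. Figures and promoter searches used Python 3.11.15.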

Additional observations from a re-analysis of the deposited data

Results flagged for a closer look

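Dixon's criterion at 95% was applied to sets of 1 gene in 1 group of 4 or 5 tendons. In 7 of 45 sets 1 tendon stood apart from the rest, and it was always the highest. Chance gives about 1 in 20 only for normally distributed values. The criterion was applied to CPM and not to log2 CPM, so the 7 cannot be set against that rate. In the 7D 0 mg/kg group replicate 3 stood apart for 4 genes, at 129 CPM for Stat2 (next 75), 90.3 CPM for Isg15 (next 25.5), 166 CPM for Mx1 (next 28.7) and 70.0 CPM for Ifit3 (next 18.9). Replicate 3 of the 7D 2 mg/kg group stood apart for Usp18, at 58.4 CPM (next 28.7). At 21D, replicate 5 at 2 mg/kg stood apart for Rsad2, at 28.3 CPM (next 12.9), and replicate 2 at 6 mg/kg for Ifit3, at 11.4 CPM (next 7.89). The members share their libraries, so the flags of 1 tendon are not independent.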

How the results depend on the processing

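The counts of members called for dose and for the interaction were 0 under all alternatives. Against control, the counts were 6 to 8, 6 to 8 and 3 to 5 at 7D 0, 2 and 6 mg/kg and 0 to 4, 0 to 2 and 0 to 1 at 21D when 1 tendon was left out, and 0 to 3, 1 to 7 and 0 to 1 between 21D and 7D. With the muscle share as a covariate they were 2, 0, 0, 1 and 0 for the 5 groups with calls. Between 21D and 7D that covariate gave 0 at each dose. At 2 and 6 mg/kg the muscle share did not overlap between 7D and 21D, so muscle RNA and time cannot be told apart there. At 21D 2 mg/kg RLE scaling and DESeq2 gave 1 and library size alone 4. Library size alone gave 4 at 21D 6 mg/kg and 2 between times at 6 mg/kg, where DESeq2 gave 4 at 0 mg/kg. A fit of only the 2 groups gave 0, 3 and 3 between times. With a replicate block 21D 6 mg/kg had 1 call and the times 0, 2 and 3, as they had when both tendons with the highest members were left out, which was chosen after seeing the data; the tendons share only a number. The cause was not tested.

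Of 1296 fitted changes, 31 turned sign. With the muscle covariate these were Ifit3 at 7D 2 and 6 mg/kg (-0.035 and -0.71), Stat2 and Usp18 at 7D 6 mg/kg (-0.14 and -0.25), Bst2 at 21D 0 mg/kg (0.036), Stat2 at 21D 6 mg/kg (-0.0099), and between times Stat2 (0.058 and 0.13) and Usp18 (0.16 and 0.55) at 2 and 6 mg/kg. With library size alone they were Ifit3 (0.27, 0.24 and 0.21) and Bst2 (0.58, 0.015 and 0.17) at 21D 0, 2 and 6 mg/kg. Bst2 turned at 7D 6 mg/kg with RLE (-0.0035) and DESeq2 (-0.0055), and at 21D 0 mg/kg without the filter (0.00054) and with the block (0.031). Leaving out 1 tendon turned 11 values, within ranges of -0.076 to 0.73 for Bst2 at 7D 0 mg/kg, -0.33 to 0.48 at 7D 6 mg/kg, -0.41 to 0.39 at 21D 0 mg/kg and -0.76 to 0.046 at 21D 6 mg/kg. The ranges for Ifit3 were -0.78 to 0.18, -0.87 to 0.17 and -0.78 to 0.19 at 21D 0, 2 and 6 mg/kg, and that for Rsad2 was -0.070 to 0.98 at 21D 2 mg/kg. The lowest count of a member in a tendon was 48.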
